A study of Homo sapiens with 2 samples.

Results

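The oxidative phosphorylation genes encode the subunits of the 4 respiratory chain complexes (I to IV) and of ATP synthase (complex V). They were taken by symbol from the protein-coding genes of GENCODE release 29: NDUFA, NDUFB, NDUFC, NDUFS and NDUFV genes without the NDUFAF assembly factors, SDHA to SDHD, and the genes whose symbols start with UQCR, COX4I, COX5, COX6, COX7, COX8, ATP5F, ATP5M, ATP5P or MT-. This rule gives 102 genes. Of these, 89 were listed among the 49627 genes in both libraries, and 74 of the 89 had a mean of at least 1 FPKM, as did 11186 genes in all. FPKM counts fragments per length of transcript and per size of the library, so it allows levels to be compared between genes of different length. The other 13 of the 102 are the genes on the mitochondrial chromosome, which were not analysed here.

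RNA-seq was carried out on MDA-MB-231 cells, a human triple-negative breast cancer line, grown in L-15 medium with 10% FBS without carbon dioxide. The RBMS1 knockdown library came from cells with stable depletion of RBMS1, an RNA-binding protein, and the control library from the matching control cells. According to the study's methods, such stable lines were made with lentiviral shRNA in the pLKO.1 vector and puromycin selection, with empty pLKO.1 as the negative control. With 1 library per group, no difference could be checked against replicates or tested, and the values compare these 2 libraries alone.

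Complex I takes electrons from NADH and complex II from succinate, complex III passes them on to cytochrome c, complex IV passes them from cytochrome c to oxygen, and complex V uses the proton gradient that complexes I, III and IV build to make ATP. Nearly all of the subunits are encoded in the nucleus and imported into mitochondria, where they join the few subunits made from mitochondrial DNA. The transcription factors NRF1 and GABPA, an ETS factor, are known for binding at the promoters of many of these genes, and YY1 sites are also found there.

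The values below are sums of transcript FPKM per gene. The interval after a value is the 95% interval that Cufflinks gives for the uncertainty within a library, summed over transcripts, and does not cover the variation between cultures. The log2 ratio is that of RBMS1-depleted over control cells with 1 FPKM added to both, which understates the difference of low genes. RBMS1 itself was at 3.76 FPKM (3.12 to 5.39) upon RBMS1 depletion and 24.1 FPKM (21.7 to 27.7) in control cells, a log2 ratio of −2.40. The mesenchymal gene VIM (496 and 563 FPKM) and the epithelial keratin genes KRT8 (160 and 122 FPKM) and KRT18 (162 and 190 FPKM) were present in RBMS1-depleted and control cells, respectively. The receptor genes ESR1 and PGR were at most 0.10 FPKM, ERBB2 was at 7.50 and 7.005 FPKM, and the leukocyte gene PTPRC was at most 0.11 FPKM. Coverage per FPKM, a measure of relative depth, was 12.4 in RBMS1-depleted cells and 11.4 in control cells, while the depth in reads is unknown because the files hold no counts.

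To show promoter motifs found in some of these genes, windows of 30 bases are given for 10 members that hold a motif. Among them are members past or near 2-fold (UQCRFS1, UQCR11, ATP5MG and NDUFA6) and the highest of complexes II and IV, SDHD and COX8A. The promoter, 250 bases before to 50 after the RefSeq start site (GRCh38.p14), was found for 68 of the 89 listed members. For the 9 of these with several start sites, and for all other genes, the first start site listed was used. Each window is written 5′ to 3′ on the strand of the gene, with the motif in capitals. The first group holds the NRF1 motif.
ATP5F1C, chr10:7788145-7788174, plus strand: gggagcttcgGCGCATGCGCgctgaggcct
SDHD, chr11:112086753-112086782, plus strand: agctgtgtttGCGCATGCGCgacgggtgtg
NDUFA8, chr9:122159764-122159793, minus strand: gttgccggatGCGCATGCGCaggcgccgtg
UQCRFS1, chr19:29213163-29213192, minus strand: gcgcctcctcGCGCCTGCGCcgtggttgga
UQCR11, chr19:1605453-1605482, minus strand: cgccgcggccGCGCCTGCGCagtgtagccg

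The second group holds the ETS motif CCGGAAG, the kind that GABPA binds, here as its reverse complement CTTCCGG.
COX8A, chr11:63974591-63974620, plus strand: cagctccagaaCTTCCGGccagcgcagcca
ATP5ME, chr4:674255-674284, minus strand: tgcaggttgtgCTTCCGGtgcggaggtcag
ATP5MG, chr11:118401596-118401625, plus strand: tgcagcgggtcCTTCCGGcgggtgacattc

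The third group holds the YY1 motif AAGATGGC, as its reverse complement GCCATCTT in the promoter of ATP5PB.
ATP5PB, chr1:111449451-111449480, plus strand: acttgtgagcgGCCATCTTggtcctgccct
NDUFA6, chr22:42090729-42090758, minus strand: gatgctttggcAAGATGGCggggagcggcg

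Searched on both strands, the NRF1 motif was in 16 of the 68 member promoters (23.5%), against 8.58% of the 15843 promoters of protein-coding genes, all of this length. The ETS motif was in 19 (27.9%, against 14.2%) and the YY1 motif in 11 (16.2%, against 3.91%). At least 1 of the 3 was in 37 member promoters (54.4%, against 23.6%), and both NRF1 and ETS motifs were in 3 (4.41%, against 1.79%). None of the 3 motifs contains another. Most of the YY1 matches lay after the start site, from 10 bases (SDHB and NDUFA9) to 38 bases (ATP5PO). That motif holds the letters ATG, and overlap with start codons was not examined. By complex, from I to V, the NRF1 motif was found in 6 of 33, 2 of 3, 4 of 7, 1 of 14 and 3 of 11 promoters. The ETS motif was found in 5 of 33, 2 of 3, 3 of 7, 5 of 14 and 4 of 11. The YY1 motif was found in 6 of 33, 1 of 3, 1 of 7, 0 of 14 and 3 of 11. These matches describe letters within the windows and are not evidence of binding.

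The oxidative phosphorylation genes were highly expressed in both libraries, and most differed little between them. The 74 members with at least 1 FPKM made up 0.662% of such genes but 1.70% of the summed gene FPKM in RBMS1-depleted cells and 1.67% in control cells. Among the 500 genes with the highest mean level there were 24 members, and among the first 1000 there were 42. The median member was at 55.8 FPKM upon RBMS1 depletion and 50.6 FPKM in control cells, against 8.13 and 7.98 FPKM over all genes. Their levels kept nearly the same order in both libraries (Spearman's rho 0.951 across the 74 genes, a description, since the genes share libraries and lengths). Short transcripts stood higher. Across 73 members with a reference transcript above 0, rho between the length of the leading transcript and the mean level was −0.667, against −0.115 over all genes, and the median leading transcript was 766 bases long in members and 2696 bases in all genes.

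**Figure D1:**
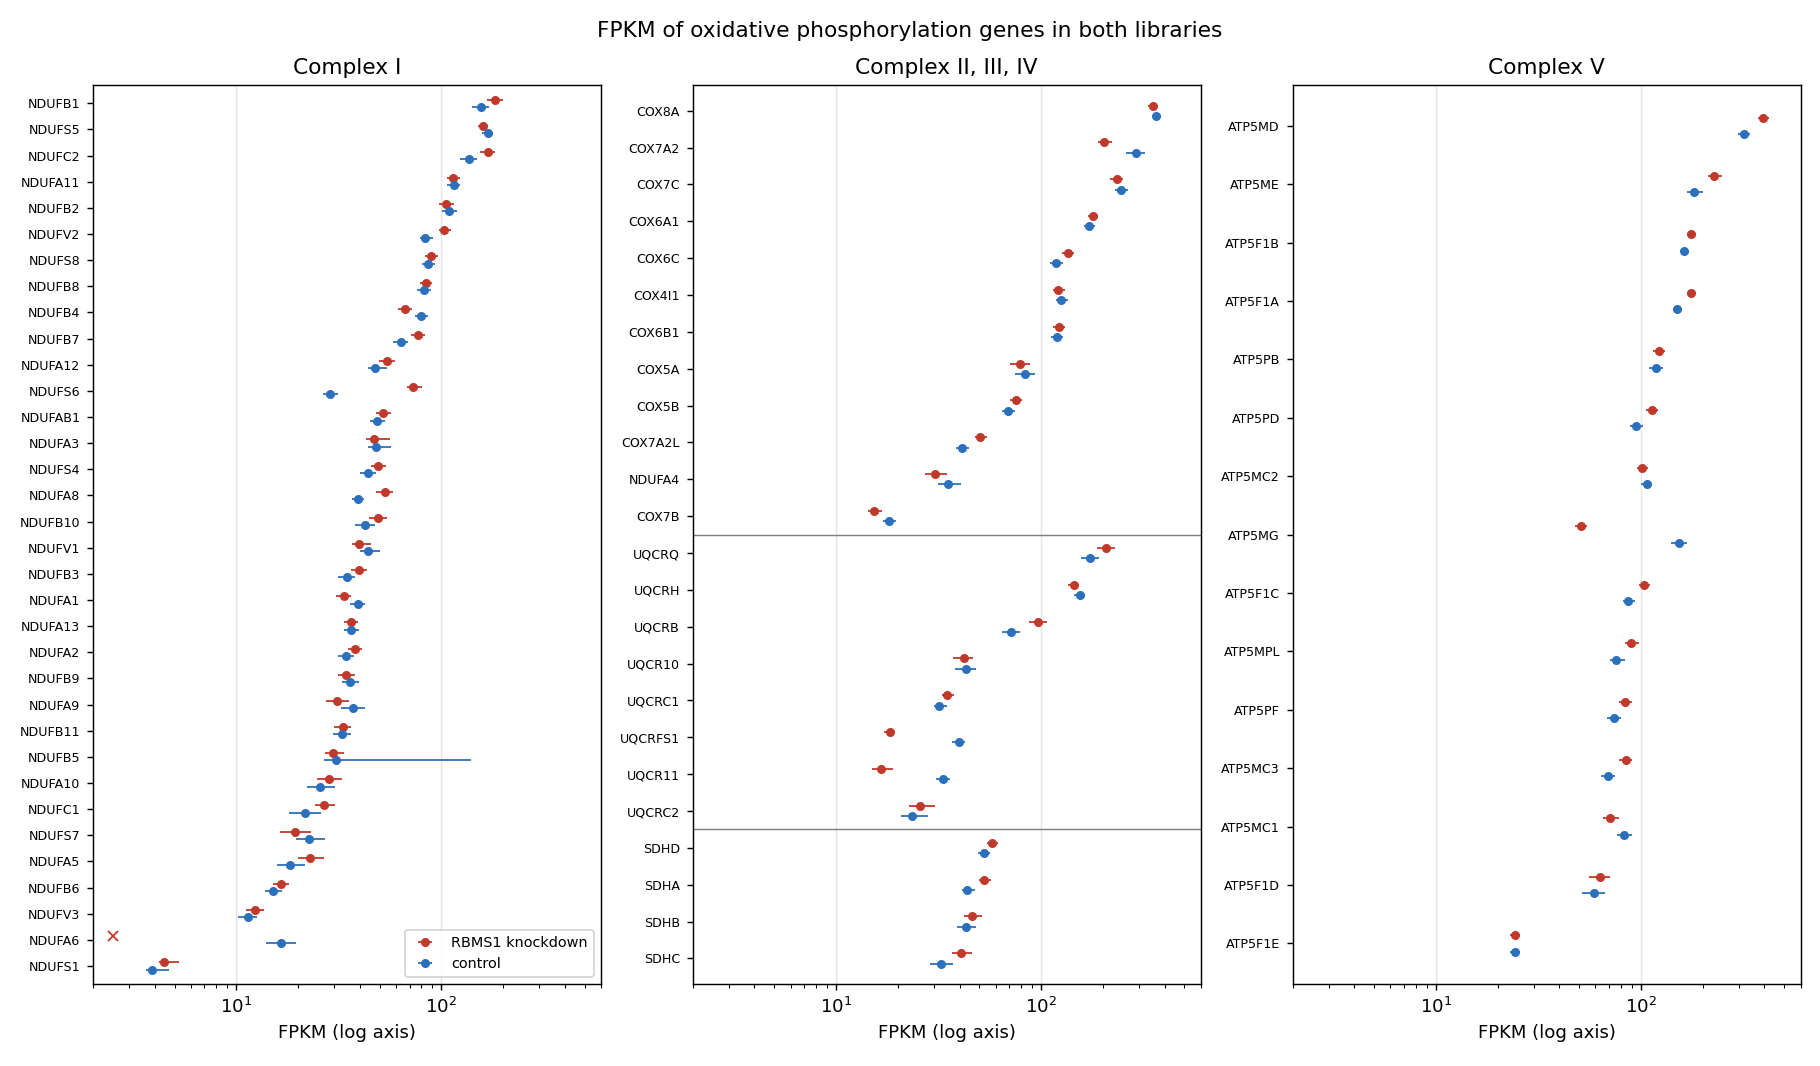
FPKM (log axis) of the members with a mean of at least 1 FPKM (all of the 74 but 1), by complex and ordered by level; red points are RBMS1-depleted cells, blue points control cells, and bars the Cufflinks interval within a library. Most pairs lie close together, while ATP5MG, UQCRFS1, UQCR11 and NDUFS6 stand apart, and the cross marks NDUFA6, listed at 0 in RBMS1-depleted cells.

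The median log2 ratio of the 74 members was 0.10, against 0.02 over all 11186 genes and 0.03 over the 4875 genes with at least 10 FPKM. In RBMS1-depleted cells 46 members were higher (62.2%), where 52.8% of all genes were, and 28 were lower, where 47.2% of all genes were. Their ratios were close together, with 68 of 74 within 0.5 of 0 on the log2 scale, as were 83.5% of all genes. At least 2-fold lower were 3 members, NDUFA6, ATP5MG and UQCRFS1, where the background is 2.8% of all genes, and at least 2-fold higher was 1 member, NDUFS6, where it is 2.96%. In either direction these are 4 members (background 5.76%), and NDUFA6 was the member listed at 0 in 1 library (background 2.72%). The intervals of both libraries did not overlap for 7 lower members (background 11.5%) and for 14 higher members (background 13.3%). Of the 4875 genes with at least 10 FPKM, 686 had such intervals and were lower and 865 had them and were higher. Among the same 4875 genes, 4280 were within 0.5 of 0, 92 were at least 2-fold lower and 85 at least 2-fold higher. In such bulk RNA, fewer cells of a type and less RNA per cell cannot be told apart.

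**Figure D2:**
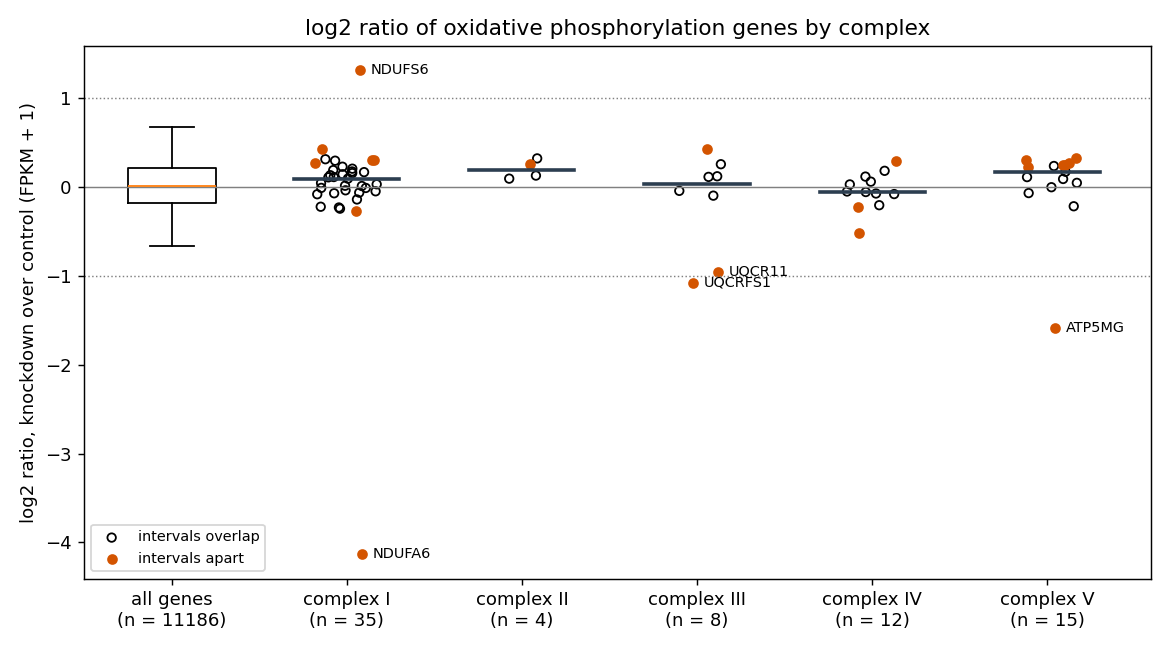
log2 ratio of FPKM + 1, RBMS1 knockdown over control, for each member by complex; filled points have intervals that do not overlap, horizontal bars are the median of a complex, dotted lines mark a 2-fold difference, and the box shows the quartiles of all 11186 genes with whiskers at the 5th and 95th percentiles. Most members of each complex sit within 0.5 of 0, and the 5 labelled members lie farthest from it.

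Complex I had 35 members with at least 1 FPKM, and their median was 39.6 FPKM upon RBMS1 depletion and 39.1 FPKM in control cells. The median log2 ratio was 0.10, with 22 members higher and 13 lower. The 6 members of the catalytic core that passed the minimum had a median log2 ratio of 0.03, and the 29 accessory subunits 0.11. By the mean of both libraries the highest member was NDUFB1, a small accessory subunit of the membrane arm, at 183 FPKM (167 to 200) upon RBMS1 depletion and 155 FPKM (141 to 171) in control cells, with overlapping intervals. The lowest by the same mean was NDUFS1, the largest iron-sulfur subunit, at 4.45 and 3.88 FPKM, with a leading transcript of 11819 bases. NDUFV2, an iron-sulfur subunit at the NADH-binding end, was the core member that stood apart, at 103 FPKM (97.7 to 112) against 83.6 FPKM (78.6 to 91.4), a log2 ratio of 0.30.

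Among the accessory subunits of complex I, NDUFA8 was at 53.2 FPKM upon RBMS1 depletion and 39.3 FPKM in control cells (log2 ratio 0.43). NDUFC2, a membrane arm subunit, was at 168 and 136 FPKM (0.31). NDUFB7 was at 77.2 and 63.6 FPKM (0.28). All 3 were higher in RBMS1-depleted cells with intervals that did not overlap. The reverse was seen for NDUFB4, another subunit of the membrane arm, at 66.2 FPKM (61.5 to 72.2) against 79.8 FPKM (74.3 to 86.6), a log2 ratio of −0.27.

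The largest differences of complex I were in NDUFA6 and NDUFS6, and both came with different transcripts in the 2 libraries. NDUFA6 (chr22:42085525-42090955, minus strand, positions of genes being those of GENCODE release 29 on GRCh38) encodes an accessory subunit of the LYR protein family. It was listed at 0 upon RBMS1 depletion and at 16.6 FPKM (13.997 to 19.5) in control cells, and all of the control value came from an assembled transcript of 652 bases in 3 exons, so no fold is given. A reference transcript of the files, ENST00000602404, shares 2 introns with NDUFA6 but is not in GENCODE release 29 and was therefore not counted with it. It spans 1080 bases in 3 exons and was at 24.5 FPKM upon RBMS1 depletion and 19.0 FPKM in control cells. With it, NDUFA6 reached 24.5 and 35.6 FPKM (log2 ratio −0.52). When fragments rather than FPKM were summed, RBMS1-depleted cells held 84.7% of the control value.

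NDUFS6 (chr5:1801400-1816605, plus strand), a zinc-binding accessory subunit, was at 73.0 FPKM (67.7 to 80.4) upon RBMS1 depletion and 28.7 FPKM (26.5 to 31.2) in control cells, a log2 ratio of 1.32. The value in RBMS1-depleted cells came from an assembled transcript of 610 bases in 5 exons that ends beyond the gene, at position 1829360. The control value came from the 4-exon reference transcript ENST00000274137 of 1082 bases. With reference transcripts alone NDUFS6 was listed at 0 in RBMS1-depleted cells, so the order of the libraries was the opposite.

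FPKM divides by transcript length, so the same fragments give a higher FPKM on a shorter model. The values were therefore also summed as fragments, that is, FPKM times transcript length over all transcripts of a gene, divided by 1 mean length per gene. Full transcript lengths were used and fragment sizes are not given, so these sums are approximate, most of all for short transcripts. On this scale NDUFS6 was at 59.9 and 41.7, 144% of control (log2 ratio 0.51). Over all 74 members, fragment sums gave 1 member at least 2-fold lower, NDUFA6, and 0 higher, where the background is 2.57% in each direction, and 71 were within 0.5 of 0. Leaving NDUFA6 aside, the ratios ran from −0.96 for UQCR11 to 0.51 for NDUFS6.

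All 4 members of complex II, the succinate dehydrogenase that is also an enzyme of the tricarboxylic acid cycle, were higher in RBMS1-depleted cells. The flavoprotein SDHA was at 52.5 FPKM (49.9 to 56.8) against 43.6 FPKM (41.3 to 47.6), a log2 ratio of 0.26, and its intervals did not overlap. The membrane anchor SDHC had the largest ratio, 0.32, at 40.7 FPKM (36.8 to 45.9) against 32.3 FPKM (28.6 to 37.4). The other anchor, SDHD, was the highest of the complex, at 57.5 and 52.4 FPKM (0.13), and the iron-sulfur subunit SDHB was at 46.2 and 43.1 FPKM (0.10). The intervals of SDHB, SDHC and SDHD overlapped, and the median log2 ratio of the complex was 0.20.

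In complex III, 4 of 8 members were higher and 4 lower, with a median log2 ratio of 0.04. The highest member was UQCRQ, a ubiquinone-binding subunit, at 207 FPKM (187 to 230) upon RBMS1 depletion and 173 FPKM (157 to 191) in control cells. UQCRB, also a ubiquinone-binding subunit, had the largest ratio of the complex, 0.43, at 96.8 FPKM (87.0 to 107) against 71.4 FPKM (64.8 to 78.6), and 0.23 as fragments. The core subunits were nearly equal in both libraries, UQCRC1 at 34.7 and 31.9 FPKM and UQCRC2 at 25.7 and 23.6 FPKM. The hinge protein gene UQCRH was at 144 and 154 FPKM and UQCR10 at 41.9 and 43.1 FPKM.

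UQCRFS1 and UQCR11 were the lowest members of complex III by ratio. UQCRFS1 (chr19:29205321-29213541, minus strand) encodes the Rieske iron-sulfur protein. It was at 18.3 FPKM (17.2 to 19.3) upon RBMS1 depletion and 39.6 FPKM (36.8 to 42.4) in control cells, a log2 ratio of −1.08. The value in RBMS1-depleted cells came from the reference transcript ENST00000304863 of 3475 bases, while 35.3 FPKM of the control value came from an assembled transcript of 1419 bases with the same start site, and 4.35 FPKM from the reference transcript. As fragments the values were 28.6 and 29.3, a log2 ratio of −0.04, and with reference transcripts alone the ratio was 1.85. The difference of UQCRFS1 was thus present in FPKM and not in fragments.

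UQCR11 (chr19:1597172-1605490, minus strand), the smallest subunit of the complex, was at 16.6 FPKM (15.0 to 18.9) upon RBMS1 depletion and 33.1 FPKM (30.9 to 36.1) in control cells, 50.1% of control and a log2 ratio of −0.96. Here both libraries had the same 3-exon reference transcript, ENST00000591899 of 1324 bases, so fragments gave the same ratio. RBMS1-depleted cells also held an assembled transcript of 2734 bases in 9 exons, at 27.3 FPKM, that runs from UQCR11 into the neighbouring gene MBD3. It shares 2 introns with UQCR11 and was counted with MBD3, with which it shares more. Counted with UQCR11 instead, it would bring the value in RBMS1-depleted cells to 43.9 FPKM and the log2 ratio to 0.40. MBD3 was at 41.9 FPKM upon RBMS1 depletion and 29.6 FPKM in control cells.

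Complex IV, cytochrome c oxidase, was the complex with more members lower (7) than higher (5), and its median log2 ratio was −0.05. The median level was 122 FPKM upon RBMS1 depletion and 119 FPKM in control cells, above the medians of the other 4 complexes. COX8A was the highest member, at 351 FPKM (333 to 370) and 365 FPKM (346 to 384). COX7A2L, a factor of supercomplex assembly, had the largest ratio, 0.30, at 50.6 FPKM (47.5 to 54.4) against 41.1 FPKM (38.3 to 44.5). COX7B was at 15.4 FPKM (14.4 to 16.7) against 18.2 FPKM (17.0 to 19.7), a log2 ratio of −0.23, and its intervals did not overlap.

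The lowest ratio of complex IV was that of COX7A2, at 204 FPKM (189 to 221) upon RBMS1 depletion and 291 FPKM (261 to 322) in control cells, −0.51 on the log2 scale. The value in RBMS1-depleted cells was made of an assembled transcript of 478 bases and ENST00000370089 of 773 bases. In control cells an assembled transcript of 355 bases led, beside ENST00000460985 of 357 bases and ENST00000370089. As fragments COX7A2 was at 238 and 257, 92.6% of control and a log2 ratio of −0.11.

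Several subunits of complex IV exist as a widely expressed and a tissue-restricted isoform, and in both libraries the widely expressed one had the higher value. A listed 0 in files without counts does not show that a gene is absent, since constitutive subunits such as ATP5MF and ATP5PO were also listed at 0. COX4I1 was at 121 and 126 FPKM, COX6A1 at 179 and 172 FPKM, and COX6B1 at 122 and 119 FPKM in RBMS1-depleted and control cells. Their partners COX4I2, a lung and hypoxia-linked isoform, and COX6A2, a muscle isoform, were listed at 0 in both, and the testis isoform COX6B2 was at 0.03 and 0.10 FPKM. COX7A1, the muscle partner of COX7A2, was at 0.48 and 0.54 FPKM. COX7B2 and COX8C were listed at 0. NDUFA4, long assigned to complex I and placed here in complex IV, was at 30.5 and 35.3 FPKM, and NDUFA4L2, which is known as a hypoxia-induced relative, was listed at 0.

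Complex V had 15 members with at least 1 FPKM, of which 11 were higher and 4 lower in RBMS1-depleted cells, with a median log2 ratio of 0.17. The medians were 0.11 for the 5 members of the catalytic F1 part, 0.17 for the 3 of the peripheral stalk and 0.24 for the 7 of the membrane part. In the F1 part, the alpha subunit gene ATP5F1A was at 176 FPKM (168 to 185) against 150 FPKM (143 to 158), a log2 ratio of 0.23. The gamma subunit gene ATP5F1C of the central stalk was at 103 FPKM (97.7 to 110) against 86.5 FPKM (81.8 to 93.2), 0.25. The beta subunit gene ATP5F1B was at 175 and 162 FPKM with overlapping intervals, and the epsilon subunit gene ATP5F1E at 24.3 FPKM in both libraries. Of the peripheral stalk, ATP5PD was at 114 FPKM (106 to 121) against 95.1 FPKM (88.6 to 102), 0.25, while ATP5PB differed by 0.05 at 123 and 118 FPKM.

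The membrane part held ATP5MD, a small subunit of the dimer interface that was the highest of all members in RBMS1-depleted cells but came after COX8A in control cells and by the mean of both, at 395 FPKM (371 to 420) upon RBMS1 depletion and 318 FPKM (297 to 340) in control cells, a log2 ratio of 0.31. ATP5ME, subunit e, had the largest ratio of the complex, 0.33, at 228 FPKM (211 to 248) against 181 FPKM (167 to 200). Of the 3 genes for the c-ring subunit, ATP5MC3 was higher, at 84.2 FPKM (78.2 to 90.5) against 69.3 FPKM (63.8 to 74.98). The other 2 had lower values with overlapping intervals, ATP5MC1 at 70.9 and 82.4 FPKM and ATP5MC2 at 102 and 106 FPKM. The 3 c-ring genes, which encode the same mature protein, therefore did not share a direction.

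ATP5MG (chr11:118401154-118431496, plus strand) encodes subunit g, which sits beside subunit e. It was at 50.7 FPKM (47.9 to 54.8) upon RBMS1 depletion and 154 FPKM (140 to 168) in control cells, 33.0% of control and a log2 ratio of −1.58. The value in RBMS1-depleted cells came from ENST00000300688 alone, a reference transcript of 1577 bases. In control cells this transcript was at 23.8 FPKM, beside an assembled transcript of 876 bases at 36.5 FPKM and ENST00000529460, annotated as a processed transcript of 457 bases, at 93.6 FPKM. As fragments ATP5MG was at 85.1 and 119, 71.3% of control and a log2 ratio of −0.48. The direction was thus the same in FPKM and fragments, and the size was not.

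An assembled transcript was counted for 17 of the 74 members (23.0%), against 45.3% of all genes. The 57 members without one had log2 ratios between −0.96 (UQCR11) and 0.33 (ATP5ME) with a median of 0.11, and all 4 members past 2-fold were among the 17. Over all genes such calls were not confined to genes with an assembled transcript. Of the 6117 genes without one, 186 were at least 2-fold lower and 206 at least 2-fold higher. With reference transcripts alone, 2 members were at least 2-fold lower (background 4.87%) and 4 at least 2-fold higher (background 5.31%). The ratio between the libraries moved by more than 1.5 times for 6 members, among them NDUFA6, NDUFA9, NDUFS6, UQCRFS1 and UQCRQ. NDUFA9, an accessory subunit, went from a log2 ratio of −0.24 to 1.19, and UQCRQ from 0.26 to 1.27.

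The 15 listed members below 1 FPKM were of different kinds. At 0 in both libraries with an upper bound of 0 were COX4I2, COX6A2, COX7B2 and COX8C. Another 7 were listed at 0 with an upper bound above 0, namely NDUFS3, NDUFA7, NDUFA4L2, NDUFC2-KCTD14, ATP5MF, ATP5MF-PTCD1 and ATP5PO. These include core or constitutive subunits, the complex I core subunit NDUFS3 (upper bounds 5.08 and 1.80 FPKM), subunit f of ATP synthase (ATP5MF, 3.76 and 3.96 FPKM) and the OSCP subunit ATP5PO (1.69 and 1.70 FPKM). Overlapping genes were annotated at the loci of all 7, and also of COX8C and COX6A2, whose upper bound was 0, and how often loci of the other members overlap a gene was not counted. Examples are PTPMT1 and KF459542.1 on the strand of NDUFS3 and AP000311.1 on that of ATP5PO. Such zeros with an open upper bound were found for 2330 of 19704 protein-coding genes (11.8%), and what led to them was not tested, so no level is given for these members. The remaining 4, COX6B2, COX7A1, UQCRHL and ATP5MGL, were between 0.03 and 0.54 FPKM, and UQCRHL and ATP5MGL are near copies of UQCRH and ATP5MG, between which reads may be divided.

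The promoter motifs were also set beside the values. Members with the NRF1 motif had a median log2 ratio of 0.05 (14 with at least 1 FPKM) and those without it 0.08 (46). For the ETS motif the medians were 0.08 and 0.07, and for the YY1 motif 0.05 and 0.10. By level, the 18 members with the ETS motif had a median mean level of 90.6 FPKM and the 42 without it 46.4 FPKM, while the 14 with the NRF1 motif were at 47.8 FPKM and the 46 without it at 60.6 FPKM. The 9 with the YY1 motif were at 44.7 FPKM and the 51 without it at 55.0 FPKM. Level also differed with transcript length and complex, the same was not computed over all genes, and a link of motif and level was not tested.

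Genes around the complexes were described by lists. Of 50 assembly factors, 42 had at least 1 FPKM, and their median log2 ratio was −0.09. Among them 17 were higher, where 52.8% of all genes were, and 25 lower, where 47.2% of all genes were. The intervals did not overlap for 7 lower factors (background 11.5%) and 3 higher ones (background 13.3%). COX16, a factor of complex IV assembly, was at 5.30 FPKM (4.58 to 6.70) upon RBMS1 depletion and 23.2 FPKM (20.0 to 26.98) in control cells, a log2 ratio of −1.94, or −1.36 as fragments. COA1 (7.79 FPKM) and SDHAF1 (4.36 FPKM) were present in control cells and listed at 0 in RBMS1-depleted cells. CMC1, also a factor of complex IV assembly, was at 32.3 FPKM upon RBMS1 depletion and listed at 0 in control cells. Over all genes, 2.72% were listed at 0 in 1 library. COX16, COA1 and SDHAF1 were the 3 assembly factors past 2-fold lower (background 2.8%) and CMC1 the only 1 past 2-fold higher (background 2.96%). With reference transcripts alone COX19, a copper-related factor of complex IV assembly, was also past 2-fold lower, with a log2 ratio of −1.60 in place of −0.45.

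The 15 regulators of mitochondrial biogenesis with at least 1 FPKM, of 18 listed, had a median log2 ratio of −0.05 and were all within 0.5 of 0. The coactivator gene PPRC1 was lowest (10.4 and 13.1 FPKM, −0.31) and GABPA highest (6.04 and 5.19 FPKM, 0.19), while NRF1 was at 4.75 and 5.04 FPKM. The intervals did not overlap for 3 of the 15, all lower upon RBMS1 depletion (background 11.5%), which were PPRC1, YY1 (33.6 and 40.8 FPKM) and LRPPRC (44.7 and 52.0 FPKM, with a log2 ratio of 0.05 as fragments). In the tricarboxylic acid cycle, 14 genes without SDHA to SDHD had a median of 0.05, from SUCLG1 (17.8 and 19.4 FPKM, −0.11) to OGDH (34.2 and 25.8 FPKM, 0.39). Glycolysis, with 18 genes including the glucose transporter gene SLC2A1, had a median of 0.04. Its ends were ALDOA (385 and 459 FPKM, −0.25) and SLC2A1 (136 and 92.8 FPKM, 0.55), and the ratio of SLC2A1 was −0.68 with reference transcripts alone. No member of the 2 metabolic lists or of the regulator list was past 2-fold, but with reference transcripts alone LDHB, PGK1, GAPDH, DLD and LRPPRC were, all higher upon RBMS1 depletion (background 5.31%).

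Genes that the symbol rule leaves out but that act in the chain were close in both libraries. Cytochrome c1 of complex III (CYC1) was at 55.7 and 59.2 FPKM, cytochrome c (CYCS) at 118 and 111 FPKM (log2 ratio 0.08, but −0.64 with reference transcripts alone), and the ATP synthase inhibitor ATP5IF1 at 123 and 115 FPKM. The ubiquinone synthesis gene COQ7 was at 4.41 and 3.73 FPKM and HIGD1A at 56.4 and 56.9 FPKM. HIGD2A, a complex IV assembly protein, was at 71.9 FPKM (66.9 to 76.9) and 61.4 FPKM (56.8 to 66.0) and was the only 1 of the 6 whose intervals did not overlap (background 13.3% in this direction).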

How the data were processed

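RNA-seq of MDA-MB-231 cells gave 1 library with RBMS1 knockdown and 1 control library, grouped by the labels. The authors deposited, for each library, reference and assembled transcripts with FPKM, its 95% interval and coverage. A further deposited table compares both libraries over transcripts with low p-values. Its FPKM values were read, while its fold changes, p-values and q-values were not used. The submitters' processing notes name Bowtie2 2.0.6, TopHat2 2.0.9, Cufflinks 2.1.1 and Cuffdiff 2.1.1; read length, strand and annotation are not given in the sources used here. The counting could divide reads between near-identical or overlapping genes.

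Transcripts were joined to GENCODE release 29 (GRCh38) by Ensembl identifier, and 98.1% of starts matched. For each gene, FPKM values were added over its reference transcripts and over assembled ones sharing at least 1 intron on its strand. Assembled transcripts that share no intron with a gene held 54.9% (knockdown) and 60.3% (control) of all FPKM and were not used. Log2 ratios used a pseudocount of 1 FPKM and genes with a mean of at least 1 FPKM, and 2-fold was the limit for a call. No test was made, because each group has 1 library. The depth in reads is unknown, so no counting interval is given beside the deposited ones.

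Named are members past 2-fold or listed at 0 in 1 library, the highest member and the extremes of each complex, members whose intervals do not overlap, isoform pairs, members that move by over 1.5 times with reference transcripts only, RBMS1 and the extremes of each list. 1 gene that this rule names stays in the counts and medians but is not reported here. Members needed to complete a subunit group were named after their values were seen. The members and lists were chosen with earlier results of these data known. Alternatives were other pseudocounts, filters, scalings and gene values; fragment sums and the count with reference transcripts that GENCODE lacks were added after seeing the data. Promoters came from RefSeq (GRCh38.p14). Python 3.11.15, pandas 2.3.3, numpy 2.4.6, scipy 1.17.1 and matplotlib 3.10.9 were used, and the calculation was tested on simulated data.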

Additional observations from a re-analysis of the deposited data

Results flagged for a closer look

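Transcripts that share introns with a member but were not counted with it held signal at 2 loci. At NDUFA6, the reference transcript that GENCODE release 29 lacks was at 24.5 FPKM upon RBMS1 depletion and 19.0 FPKM in control cells. At UQCR11, the transcript running into MBD3 was at 27.3 FPKM upon RBMS1 depletion, and no such transcript was found in control cells. Both values change the ratio of their gene, as given above.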

How the results depend on the processing

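Between 44 and 48 members were higher under all alternatives tried, and the median log2 ratio of the members stayed between 0.07 and 0.11. The number of members at least 2-fold lower was 3 and became 1 with fragments summed. It was 2 with a pseudocount of 5 FPKM, with reference transcripts or the dominant one only, with the reference transcripts that GENCODE lacks, and without genes listed at 0 in 1 library. The number at least 2-fold higher was 1 and became 4 with reference transcripts only (background 5.31%), 2 with the dominant reference transcript only and 0 with fragments summed. With reference transcripts only, or the dominant one only, NDUFS6, then listed at 0 in RBMS1-depleted cells, turned to −4.89 and UQCRFS1 to 1.85. The dominant transcript alone gave medians of −0.03 for complex III and 0.05 for complex IV, the opposite sign of the values above. RBMS1 was at −1.73 with a pseudocount of 5 FPKM. The 3 other scalings moved all ratios by at most 0.03, which left between 44 and 47 members higher, so that only ratios near 0 changed sign. No paired analysis was possible because neither group has a second library, and for the same reason none could be left out. FPKM without counts limits what can be said of low members and of those listed at 0.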

Other observations

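The table of the authors' own comparison holds 7236 transcripts, among them 19 of 14 member genes. None of the 19 was the leading transcript of its gene, and all were listed at 0 FPKM in both libraries' own transcript lists, although the highest, COX6C ENST00000297564, reached 49.8 FPKM in the control column of that table and 24.2 FPKM in the knockdown column. At 0 in 1 of its 2 columns were 11 of the 19 (57.9%), as were 51.1% of all its transcripts. The 2 sources thus give different levels for these minor transcripts, and they were not combined.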
